A study of Mus musculus with 6 samples.

Results

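The epidermal growth factor (EGF) family was followed in cultured nephrogenic stroma, the interstitial connective tissue of the outer zone of the fetal kidney in which nephrons form. Its 10 members were chosen by gene name among 78409 genes in the deposited table: the 7 ligand genes Hbegf, Areg, Ereg, Epgn, Tgfa, Btc and Nrg1 and the 3 receptor genes Egfr, Erbb2 and Erbb3. The name Nrg1 occurred in more than 1 row, and the row of highest total count was used. Kidneys of wild-type CD1 embryos (day 18 of gestation) were pooled, and their nephrogenic zone cells were sorted as PDGFRa positive after antibody staining, and were grown in serum-containing medium for 18 h before polyadenylated RNA was sequenced. The substrates were coverslips coated with the silicone elastomer PDMS and then incubated in bovine fibronectin at 500 ng/mL (low adhesion, n = 3) or 50000 ng/mL (high adhesion, n = 3). Each of 3 litters gave 1 library per substrate, so every litter is a pool of animals and both groups share genotype, sort and medium.

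EGF family ligands are made as membrane-anchored precursors that metalloproteases of the ADAM family cut free. The released factors bind receptor tyrosine kinases of the ErbB family, which pair with each other and signal through RAS, ERK and phosphoinositide 3-kinase. In the kidney the pathway is known for its part in the growth of collecting duct epithelium and in tubule repair after injury. The comparison asks whether the amount of fibronectin under the cells changes the message levels of these ligands and receptors.

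Library totals ran from 12596249 to 13508257 deposited counts, so that 3 counts stood for 0.222 to 0.242 CPM, the unit of counts scaled by the TMM-adjusted total of tested genes. Renal stroma markers were present in 6 of 6 libraries, with a summed level of 5342 to 6301 CPM for 10 genes. Most of it was Vim (mean 3489 CPM) and Col1a1 (1488 CPM), while Pdgfra, the gene of the sort marker, averaged 25.9 CPM. At high adhesion 8 of the 10 fell and 1, Vim, rose. Ureteric and general epithelial markers summed to 365 to 674 CPM at low and 549 to 975 CPM at high adhesion, most of it Krt18. Of its ureteric bud genes Gata3 averaged 44.7 CPM on the low and 34.5 CPM on the high substrate and Wnt11 8.95 and 7.94 CPM, Ret had 3 to 13 counts in each library, and Wnt9b had no count. Macrophage and leukocyte markers summed to 45.0 to 94.9 CPM at low and 33.2 to 87.3 CPM at high adhesion. Schwann cell and neural markers summed to 40.1 to 48.4 CPM, with 10 of 14 under 1 CPM, no count of Cdh19 and Th, and 2 of 4 tested genes higher and 1 lower. Endothelial markers summed to 45.5 to 59.0 CPM with 1 of 7 tested lower, and markers of nephron progenitors and early nephrons to 78.1 to 106 CPM with 4 of 10 tested higher. Beside these counts, 4.71% of all tested genes were called higher and 4.83% lower at high adhesion. The part of these cell types in the values below was not tested. These are bulk libraries, in which fewer cells of a type and less RNA per cell cannot be told apart.

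Differences between substrates were small for every family member that was well counted. Egfr, the receptor shared by most of the ligands, rose 1.16-fold at high adhesion, and Hbegf, the ligand gene of highest level, fell 1.10-fold. Of the 9 members that passed the filter on low counts, these 2 were called, 1 higher and 1 lower, and 7 did not pass. Over all 14834 genes tested, 9.55% were called, 4.71% higher and 4.83% lower, and a count of 2 in 9 is no result about the family as such. An unadjusted p under 0.05 was found for 5 of the 9 members and for 21.9% of all tested genes. In a fit without the replicate block, where libraries are not compared within litters, 0 of the 9 members and 0.243% of all genes were called. The median log2 fold change (high minus low) was 0.04 for the tested members and 0.00 for all genes. For Areg, Ereg and Hbegf the litter means differed by more than the substrates did, with ranges of 2.65-fold, 2.62-fold and 1.45-fold. For Egfr the range of litter means over both substrates was 1.02-fold, although litter 2 was lowest at low and highest at high adhesion.

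**Figure D1:**
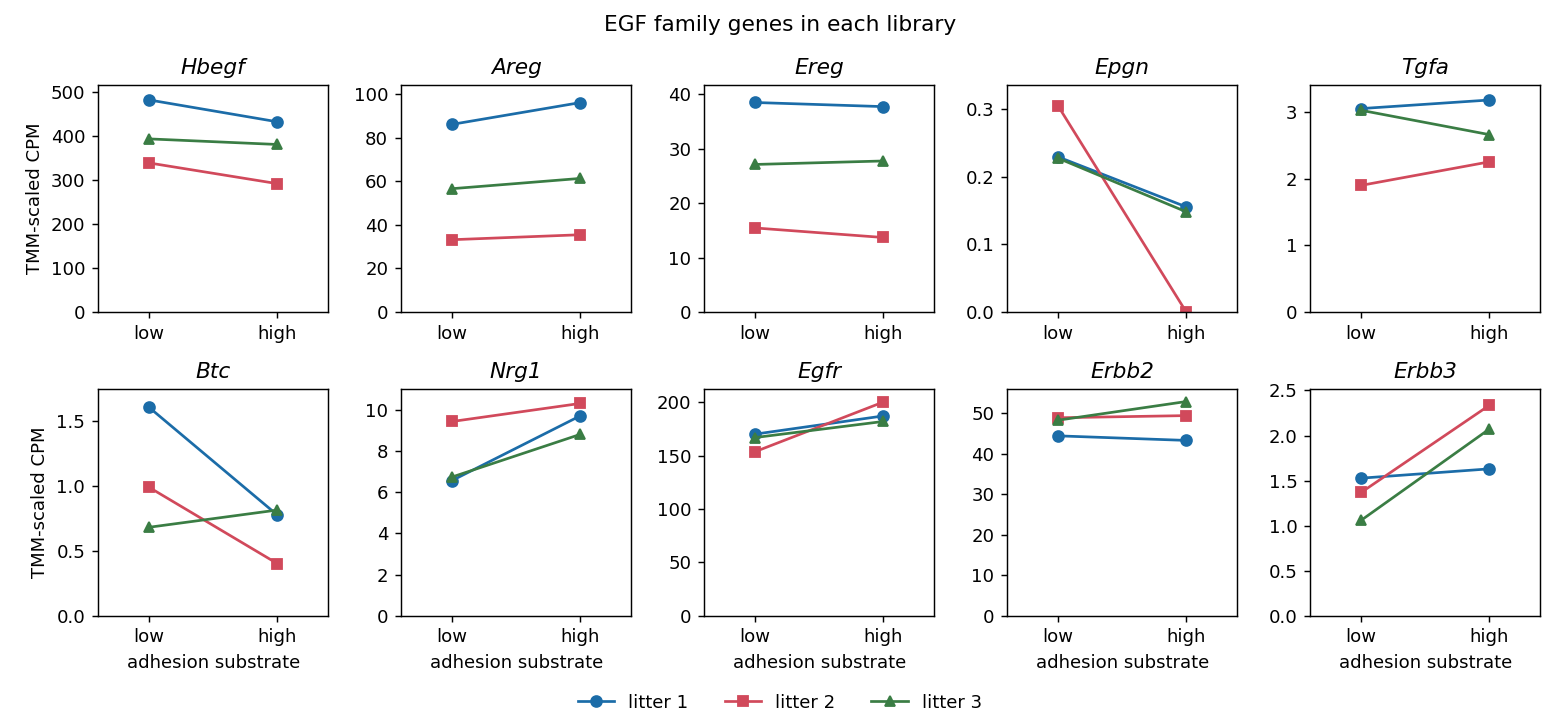
TMM-scaled CPM (y axis of each panel, starting at 0) of the 10 EGF family genes on the low and high adhesion substrates (x axis), with 1 point per library and a line joining the 2 libraries of a litter. Areg and Ereg keep the litters apart on both substrates, while Egfr is higher at high adhesion in each of 3 litters.

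Levels of different genes were compared per kilobase of exon, since longer messages can give more reads. The length used was that of all annotated exons of a gene merged, which can exceed the length of the transcript present. The distribution of reads along the transcripts is not given in the sources used here. This order and the ligand shares below are therefore approximate. Hbegf, which encodes heparin-binding EGF-like growth factor, stood highest with 83.6 ± 14.9 CPM per kb at low and 76.1 ± 14.7 at high adhesion (SD, n = 3 each). Areg, the gene for amphiregulin, followed with a range of 27.3 to 79.0 CPM per kb, and was below Hbegf in 6 of 6 libraries although the ranges of the 2 genes overlap. Egfr came next with 14.5 ± 0.77 and 16.8 ± 0.83 CPM per kb, clear of Areg and of Erbb2 in every library. Erbb2 (9.05 ± 0.46 and 9.30 ± 0.93 CPM per kb) and Ereg, the epiregulin gene (6.54 ± 2.79 and 6.39 ± 2.93), overlapped, with Erbb2 above in 4 of 6 libraries. Nrg1, Tgfa, Erbb3, Btc and Epgn all lay under 1 CPM per kb in these libraries. Among these low genes Nrg1 was above Tgfa without overlap, whereas Tgfa, Erbb3, Btc and Epgn each overlapped their neighbour in the order.

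Hbegf made up 49.8% to 68.2% of the summed per-kb level of the 7 ligands, and Areg 26.6% to 44.1%. Ereg held 3.52% to 5.14%, and Nrg1, Tgfa, Btc and Epgn together were the small remainder, with Nrg1 at no more than 1.06%. No interval is given for these shares because they combine counts of several genes.

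**Figure D2:**
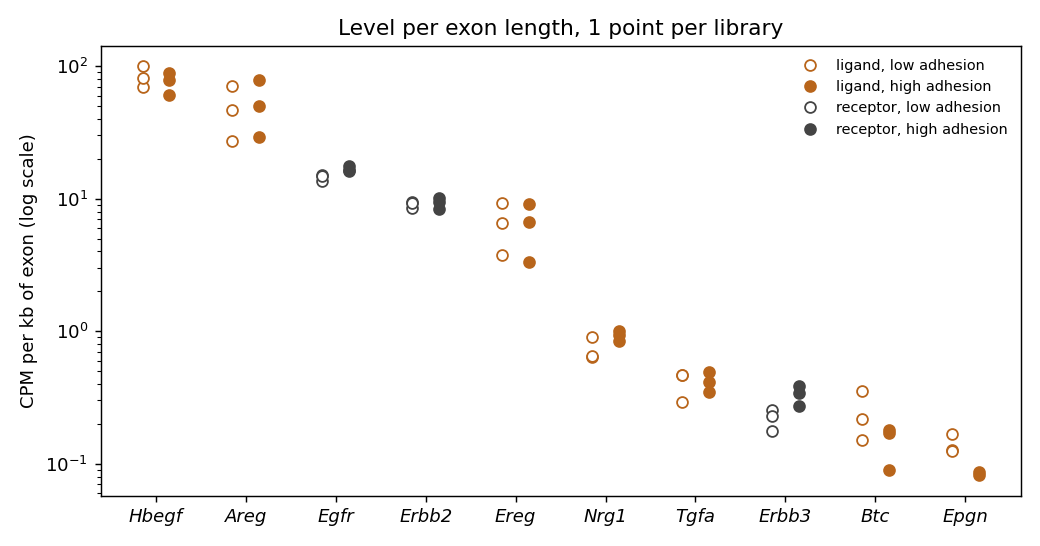
CPM per kb of exon on a log axis for the 10 genes in order of their mean, with ligands in orange, receptors in grey, open points for low and filled points for high adhesion, and 1 point per library. Hbegf and Areg stand above Egfr in every library, and the high adhesion library of litter 2 has no Epgn count and so no point.

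Of the ligand genes, Hbegf (ENSMUSG00000024486) codes for a ligand of EGFR and ERBB4 that binds heparan sulfate. Its level in litters 1, 2 and 3 was 481, 338 and 393 CPM at low and 432, 291 and 380 CPM at high adhesion. It was lower at high adhesion in 3 of 3 litters, but the groups overlapped widely because litters differed more than substrates did. Its log2 fold change was -0.14 with a standard error of 0.04 (3 libraries per substrate, edgeR adjusted p = 0.0303). The call ended without any 1 of the litters (edgeR adjusted p = 0.142, 0.105 and 0.0555 without litters 1, 2 and 3), with DESeq2 (adjusted p = 0.198) and without the replicate block (edgeR adjusted p = 0.890).

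Areg (ENSMUSG00000029378), whose product binds EGFR, had 86.1, 33.2 and 56.6 CPM at low and 96.0, 35.4 and 61.3 CPM at high adhesion in litters 1, 2 and 3. It was above in 3 of 3 litters by a small margin, and the groups overlapped. The difference of 0.13 on the log2 scale (standard error 0.06) did not pass (edgeR adjusted p = 0.179), with a 95% interval of 1.01-fold to 1.18-fold. Ereg (ENSMUSG00000029377), which codes for a ligand of EGFR and ERBB4, had 38.5, 15.4 and 27.1 CPM at low and 37.7, 13.7 and 27.7 CPM at high adhesion. Within each litter its values on the 2 substrates lay close together, with a fold of 0.97 and a 95% interval of 0.88 to 1.08 (edgeR adjusted p = 0.836).

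The other ligand genes were thinly counted. Nrg1 (ENSMUSG00000062991), the gene for neuregulin 1, which binds ERBB3 and ERBB4 and not EGFR, had 6.57, 9.43 and 6.74 CPM at low and 9.70, 10.3 and 8.80 CPM at high adhesion in litters 1, 2 and 3. It was higher in 3 of 3 litters, with the low adhesion library of litter 2 inside the range of the high group. The fold of 1.27 (95% interval on the log2 scale 0.10 to 0.59) missed the threshold (edgeR adjusted p = 0.0629). It passed where the test kept just genes with a mean of 5 CPM or more (edgeR adjusted p = 0.0475) and without litter 2 (edgeR adjusted p = 0.0269). It did not pass without litter 1 or 3 (edgeR adjusted p = 0.383 and 0.218), without the replicate block (edgeR adjusted p = 0.570) or with DESeq2 (adjusted p = 0.655). Tgfa (ENSMUSG00000029999), the transforming growth factor alpha gene, lay between 1.90 and 3.18 CPM, from 25 to 41 counts. Its groups overlapped, and the fold was 1.01 with a 95% interval on the log2 scale of -0.37 to 0.40 (edgeR adjusted p = 0.973).

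Btc (ENSMUSG00000082361), which codes for betacellulin, had 21, 13 and 9 counts at low and 10, 5 and 11 counts at high adhesion in litters 1, 2 and 3. Litters 1 and 2 were lower at high adhesion and litter 3 was not, and the fold of 0.62 did not pass (95% interval 0.38 to 1.02, edgeR adjusted p = 0.248). Epgn (ENSMUSG00000035020), the gene of the EGFR ligand epigen, had 3, 4 and 3 counts at low and 2, 0 and 2 counts at high adhesion. It was removed by the filter and no difference could be tested at this depth.

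Among the receptors, Egfr (ENSMUSG00000020122) had 170, 154 and 167 CPM at low and 187, 200.3 and 182 CPM at high adhesion in litters 1, 2 and 3. The 3 high adhesion libraries lay above the 3 low adhesion libraries, and the rise was largest in litter 2 (1.30-fold, against 1.10-fold and 1.09-fold in litters 1 and 3). Its log2 fold change was 0.21 with a standard error of 0.05 (3 libraries per substrate, edgeR adjusted p = 0.00468). Without litter 2 it was 0.13 and no longer passed (edgeR adjusted p = 0.0607), nor did it pass with DESeq2 (adjusted p = 0.0580) or without the replicate block (edgeR adjusted p = 0.308). Its counts were fractional in 4 of 6 libraries, which whole reads counted once would not give, so its value is uncertain to that extent.

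Erbb2 (ENSMUSG00000062312), the receptor with no known ligand of its own that serves as partner to the others, had 44.4, 48.8 and 48.2 CPM at low and 43.2, 49.4 and 52.8 CPM at high adhesion in litters 1, 2 and 3. The groups overlapped, and the fold of 1.03 had a 95% interval of 0.94 to 1.12 (edgeR adjusted p = 0.791). Erbb3 (ENSMUSG00000018166), a neuregulin receptor with weak kinase activity, had 1.53, 1.37 and 1.06 CPM at low and 1.63, 2.34 and 2.07 CPM at high adhesion, from 14 to 29 counts. Its 3 high libraries lay above its 3 low libraries, but the fold of 1.52 (95% interval 1.07 to 2.16) did not pass (edgeR adjusted p = 0.130). Groups did not overlap for Egfr and Erbb3 among the 9 tested members, both with the high group above, beside 15.6% of all tested genes (7.95% with the high group above and 7.67% with it below). Of 12 tested epithelial markers 4 rose, all of them keratin genes, and 1, Gata3, fell, beside 9.55% of all tested genes called. Their median log2 fold change was 0.35. The 7 that did not pass include Epcam (0.33, edgeR adjusted p = 0.100), Cdh1 (0.35, edgeR adjusted p = 0.556) and Cldn4 (-0.21, edgeR adjusted p = 0.459). The part of epithelial cells in the receptor values was not tested. Sox10, which marks Schwann cells that also use Erbb3, was at or near 0 in these libraries. Of 4 tested Schwann cell and neural markers Tubb3 and Elavl4 rose, Fabp7 fell and Gap43 did not pass. The part of such cells in the Erbb3 values was not tested.

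**Figure D3:**
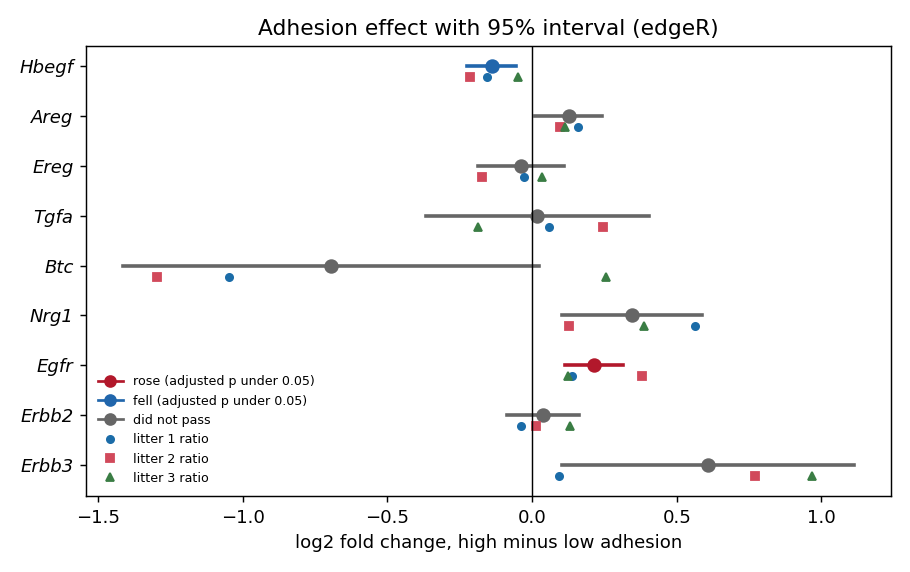
Log2 fold change (x axis, high minus low adhesion) of the 9 tested members with its 95% interval from the edgeR fit, red for a rise, blue for a fall and grey for members that did not pass, and small symbols for the ratio within each litter. The intervals of Hbegf and Egfr are short and clear of 0, while those of Tgfa, Btc and Erbb3 are wide.

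The levels of 3 ligand genes differed more between litters than between substrates. Each litter is 1 pool with 1 library per substrate, so the litter F-test compares pools, whose animals and preparation cannot be told apart. Averaged over both substrates, Areg was 91.1 CPM in litter 1, 34.3 in litter 2 and 58.9 in litter 3, a 2.65-fold range (edgeR litter F-test adjusted p = 1.57e-13). Ereg followed the same order with 38.1, 14.6 and 27.4 CPM, a 2.62-fold range (edgeR adjusted p = 5.38e-11). Hbegf was 457, 315 and 387 CPM, a 1.45-fold range (edgeR adjusted p = 3.73e-08). For each of the 3 genes litter 1 was highest and litter 2 lowest on both substrates. Tgfa had the same order in its litter means, 3.12, 2.08 and 2.85 CPM, without passing (edgeR adjusted p = 0.179).

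The receptors and the other tested ligands, Tgfa, Btc and Nrg1, did not pass the litter test with all 3 litters, and Epgn was not tested. Egfr was 179, 177 and 175 CPM in litters 1, 2 and 3, a 1.02-fold range (edgeR adjusted p = 0.924). These means hide opposite positions of litter 2, lowest at low adhesion (154 CPM) and highest at high adhesion (200.3 CPM). For Erbb2 the range was 1.15-fold, for Erbb3 1.18-fold and for Nrg1 1.27-fold, with edgeR adjusted p of 0.108, 0.829 and 0.161. Erbb2 passed the litter test without litter 2 (edgeR adjusted p = 0.0442). Thus 3 of 9 members differed between litters, beside 17.9% of all tested genes. Of the 2655 genes called for litter, 31.3% had litter 1 highest and litter 2 lowest in their means. Macrophage and leukocyte markers moved with these ligand genes: 11 of 13 tested were called for litter, and the 11 had that same order. Their summed level was 94.9, 45.0 and 51.3 CPM at low and 87.3, 33.2 and 45.1 CPM at high adhesion in litters 1, 2 and 3. Of 12 tested epithelial markers 7 were called for litter, and 3 of the 7 had that order. Their sum, most of it Krt18, was 674, 365 and 476 CPM at low and 975, 549 and 802 CPM at high adhesion, while Gata3 ran otherwise with litter means of 35.3, 38.5 and 45.0 CPM. The part of either cell type in the ligand levels was not tested.

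**Figure D4:**
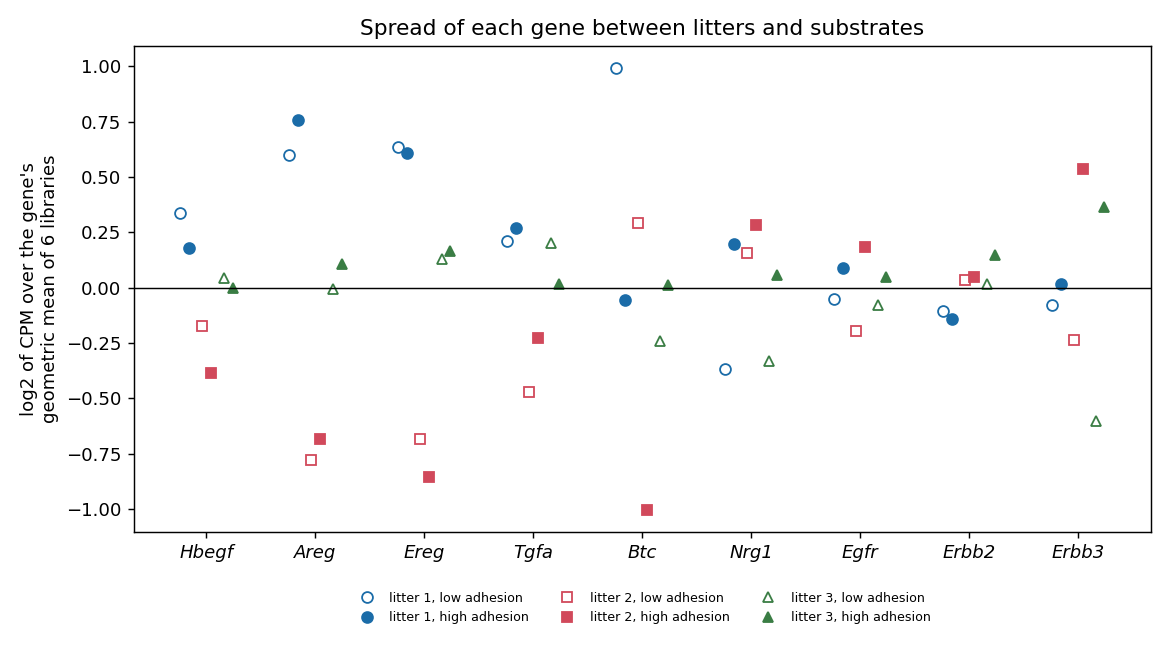
Log2 of CPM over each gene's geometric mean of 6 libraries (y axis) for the 9 tested members, with colour and shape for the litter, open points for low and filled points for high adhesion. For Areg, Ereg and Hbegf both points of litter 1 lie above and both of litter 2 below those of litter 3, whereas Egfr separates open from filled points.

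Promoter sequence is shown for Areg, the member that differed most between litters, for Tgfa, whose litter means had the same order, and for Egfr, the member that rose with adhesion. RefSeq promoter entries of build GRCm38.p6 were matched for 6 of 10 members, and the 250 bases before the gene start are printed 5′ to 3′ on the gene's strand. Entries on a single chromosome were left out of the match by choice, so a member without a match may still have an entry. Those without a match were Hbegf, Ereg, Nrg1 and Erbb3. The windows thus leave out Hbegf, called for adhesion and for litter, and Ereg, called for litter. These coordinates belong to that build and not to the build of the counts. Capitals mark matches on either strand to the motifs searched.
Areg, chr5:91139349-91139598, plus strand: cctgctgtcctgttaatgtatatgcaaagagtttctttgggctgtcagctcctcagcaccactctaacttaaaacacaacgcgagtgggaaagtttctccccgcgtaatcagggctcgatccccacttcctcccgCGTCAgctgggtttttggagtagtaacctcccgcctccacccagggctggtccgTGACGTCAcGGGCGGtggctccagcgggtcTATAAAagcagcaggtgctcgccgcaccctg
Tgfa, chr6:86194972-86195221, plus strand: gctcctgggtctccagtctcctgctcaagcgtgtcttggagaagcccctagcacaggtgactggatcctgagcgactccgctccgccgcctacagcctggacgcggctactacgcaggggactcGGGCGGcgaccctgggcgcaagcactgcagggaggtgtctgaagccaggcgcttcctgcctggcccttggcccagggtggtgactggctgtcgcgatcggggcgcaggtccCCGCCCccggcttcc
Egfr, chr11:16751953-16752202, plus strand: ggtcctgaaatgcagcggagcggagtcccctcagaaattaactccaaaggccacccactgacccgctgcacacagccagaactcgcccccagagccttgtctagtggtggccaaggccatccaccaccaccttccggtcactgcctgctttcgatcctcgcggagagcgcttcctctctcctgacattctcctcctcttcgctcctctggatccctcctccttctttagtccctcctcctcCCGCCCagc

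The Areg window held a full cAMP response element (CRE, TGACGTCA) beginning 61 bases before the start, which 1.55% of 32851 promoter windows of this length contain, and a TATA box (TATAAA) 31 bases before it, found in 12.4%. Short CRE sites (TGACG, 17.8% of windows) lie on both strands inside the full element, and a further one begins 115 bases before the start. A GC box (GGGCGG, 32.7% of windows) follows the CRE. The Tgfa window held 2 GC boxes and the Egfr window 1, and neither had a TATA box of these letters. The motifs of AP-1 (TGANTCA, 6.75%) and TEAD (GGAATG, 12.6%) and the CArG box of SRF (1.47%) were not in these 3 windows. GC content was 57.2% for Areg, 69.2% for Tgfa and 60.8% for Egfr, beside a median of 52.4% over all windows. A match is a description of letters and does not show that a factor binds.

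The genes of the wider pathway were read from 5 lists, chosen like the members with earlier results of these data known. Of 106 tested genes outside the 10 members 17 rose, 10 fell and 79 did not pass, which is 25.5% called beside 9.55% of all tested genes. Most of these calls came from the list of ERK-responsive output and feedback genes. The lists were not matched in level to all tested genes. Among genes of at least 5 mean CPM, 1426 of 10202 were called, 30 of them pathway genes. The pathway genes kept by that filter were not counted, so these 30 give no share to compare. Without the replicate block 2 of the 106 passed, Dusp1 upwards and Cblb downwards.

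Of the further family genes Egf, Nrg2, Nrg3, Nrg4 and Erbb4, 2 were tested and neither passed. Egf, the founding ligand, averaged 2.46 CPM (SD 0.72) on the low and 2.49 CPM (SD 0.46) on the high substrate (edgeR adjusted p = 0.982). Nrg2, another neuregulin gene, averaged 1.34 CPM (SD 0.27) and 1.47 CPM (SD 0.63) on them (edgeR adjusted p = 0.848). Erbb4, a neuregulin receptor that Hbegf and Btc products also bind, averaged 0.38 CPM (SD 0.20) and 0.29 CPM (SD 0.17) and was not tested.

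In the list of ligand shedding and trafficking genes 5 of 17 rose and 1 fell, with a median log2 fold change of 0.11. This is 35.3% called, beside 9.55% of all tested genes. Timp3, an inhibitor of ADAM proteases, rose 1.24-fold (edgeR adjusted p = 1.62e-06). The membrane protease genes Adam9 and Adam19 rose by 0.33 and 0.19 on the log2 scale, and the tetraspanin gene Cd81 by 0.16. Adam17, which codes for the main sheddase of several EGFR ligands, differed by -0.22 on the log2 scale (standard error 0.09) and did not pass (edgeR adjusted p = 0.110). Adam10, another sheddase of the family, did not pass either (log2 fold change -0.12, edgeR adjusted p = 0.218). Adam19 and Adam17 counts were fractional in 5 of 6 libraries. The Cd81 call ended with DESeq2 (adjusted p = 0.173) and without litter 1 (log2 fold change 0.07).

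Of 24 tested genes that restrain or degrade the receptors 1 rose and 1 fell, with a median log2 fold change of 0.00. This is 8.33% called, near the 9.55% of all tested genes, and no result about the list as such. Cblb, a ubiquitin ligase that marks activated receptors for degradation, fell from a mean of 33.4 CPM (SD 2.36) to 23.3 CPM (SD 0.44), 1.43-fold (edgeR adjusted p = 1.30e-05). Lrig1, a membrane protein that lowers ErbB receptor levels, rose 1.26-fold (edgeR adjusted p = 0.00858), a call lost with DESeq2 (adjusted p = 0.296) and without litter 3 (edgeR adjusted p = 0.100). Errfi1, a feedback inhibitor of EGFR, averaged 342 CPM (SD 63.7) and 354 CPM (SD 63.0) and did not pass (edgeR adjusted p = 0.536). Errfi1 differed between litters in the order of the ligands, with 416, 292 and 336 CPM in litters 1, 2 and 3 (edgeR adjusted p = 5.61e-08).

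Adaptors and kinases between receptor and nucleus had a median log2 fold change of 0.02, with 1 of 34 higher and 3 lower. This is 11.8% called, near the 9.55% of all tested genes, and no result about the list as such. Pik3cb, a catalytic subunit of phosphoinositide 3-kinase, rose 1.30-fold, and the regulatory subunit gene Pik3r1 fell by 0.23 on the log2 scale. Mapk3, which codes for ERK1, fell 1.29-fold (edgeR adjusted p = 0.000402), and its counts were fractional in 4 of 6 libraries. Stat3, a transcription factor downstream of many receptors, fell 1.19-fold. With DESeq2 the calls of Stat3 (adjusted p = 0.0539) and Pik3r1 (adjusted p = 0.554) ended, and Pik3r1 also missed the threshold without litter 1 (edgeR adjusted p = 0.337), without litter 3 (edgeR adjusted p = 0.210) and with limma on deposited CPM (adjusted p = 0.0567).

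ERK-responsive output and feedback genes held the most calls, 10 higher and 5 lower of 29. This is 51.7%, beside 9.55% of all tested genes, and the median log2 fold change was 0.12. Dusp1, a MAP kinase phosphatase, rose 1.38-fold and Fosl1, an AP-1 subunit, 1.35-fold. Dusp5, an ERK phosphatase of the nucleus, rose 1.27-fold, while Junb fell 1.27-fold. For Dusp5 the counts were fractional in 4 of 6 libraries. In the litter test 17 of the 29 were called, 58.6% beside 17.9% of all tested genes. Of the 17, 11 had litter 1 highest and litter 2 lowest, an order taken from the ligand genes. This is 64.7% of the called genes, beside 31.3% over all tested genes called for litter. Among the 11 were Fosl1 with 170, 101 and 125 CPM and Dusp5 with 432, 267 and 344 CPM in litters 1, 2 and 3. Many other receptors and serum also act on the genes of this list.

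**Figure D5:**
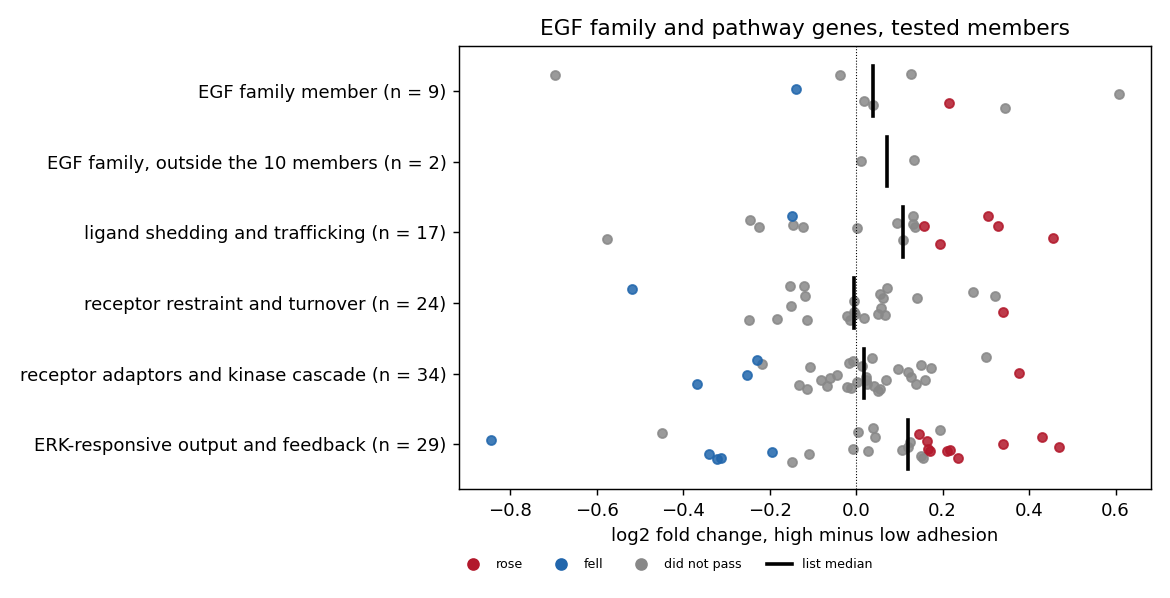
Log2 fold change (x axis, high minus low adhesion) of the tested genes of the EGF family and of 5 pathway lists, 1 point per gene with random vertical spread, coloured by the call and with a bar at each list's median. Called genes are spread to both sides in the ERK-responsive list, and most points of the receptor restraint and kinase cascade lists lie close to 0.

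The genes whose pattern over the 6 libraries was most like that of the called members were taken among 10206 genes with a mean of 5 CPM or more by Pearson's r of log2(CPM + 1). For Egfr these were Smad2 (r = 0.986), a signal transducer of TGF-beta receptors, Tbc1d25 (r = 0.986) and Kmt5a (r = 0.983). For Hbegf they were Bend5 (r = 0.999), Rdh10 (r = 0.995), an enzyme of retinoic acid synthesis, and Oaf (r = 0.994). The 6 libraries come from 3 litters, and with so many genes compared values this high are a description only.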

How the data were processed

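Messenger RNA was measured in 6 libraries, 3 per substrate, with libraries made by a commercial service by tagmentation after mRNA capture, per the labels' protocols. Tools named in the submitters' processing notes are fastp 0.24.0, STAR 2.7.11, featureCounts of Subread 2.1.1, SAMtools 1.22.1, FastQC 0.12.1, MultiQC 1.32, with build GRCm39. For annotation release, strand setting and multiply mapped reads the choices were not given in the sources used here. Deposited values were estimated counts per gene, some fractional, and the same values as CPM (count and CPM columns per the file headers). Genes with fractional counts held 57.3% to 59.8% of each library, so shared reads make such genes uncertain.

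Counts were rounded and fitted with edgeR 4.0.16 (R 4.3.3) after filterByExpr (14834 genes kept) and TMM scaling. The quasi-likelihood model held litter as a block, as the series' litter-matched design states, and tested adhesion, or litter by an F-test on 2 coefficients. Two-sided p-values were adjusted (Benjamini-Hochberg, threshold 0.05) over every gene in the test. Standard errors are the fold change over the root of F. Printed CPM use totals of tested genes scaled by TMM. Litters are separate pools of animals. Same-litter libraries deviated together (r = 0.62, 0.63 and 0.42 across genes for litters 1, 2 and 3, between -0.54 and -0.07 for other pairs). Exon lengths were those of all annotated exons of a gene merged, from GENCODE M21 by gene identifier. Scripts were tested on simulated data.

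The members and lists were chosen with earlier results of these data known. Named list genes were up to 4 called genes of lowest p per pathway list, or the 2 of highest CPM where none was called, and up to 3 per marker list with the 2 of highest CPM. Adam17, Adam10, Errfi1, Erbb4, Sox10, Gata3, Wnt9b, Wnt11, Ret, Cdh19, Th, Epcam, Cdh1 and Cldn4 were named after their values were seen. Alternatives were DESeq2 1.42.0, limma 3.58.1, other scalings and filters, no replicate block, and leaving out each litter.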

Additional observations from a re-analysis of the deposited data

How the results depend on the processing

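With DESeq2 and litter in the model 407 genes were called for adhesion in place of 1416, 0 of the 9 EGF family members (2 at an unadjusted p under 0.05) in place of 2, and 15 pathway genes in place of 27. Without the replicate block edgeR called 36 genes, 0 family members (2 at an unadjusted p under 0.05) and 2 pathway genes. Leaving out 1 litter at a time gave 908 to 1553 genes, the lowest without litter 3, 1 family member each time (Egfr without litter 1 or 3, Nrg1 without litter 2) and 20 to 31 pathway genes. The cause was not tested. DESeq2 size factors, library totals, no filter on low counts, limma-voom and limma on log2(deposited CPM + 1) each kept the count of 2 family members, and a filter at 5 mean CPM gave 3. The litter test, which needs the block, called 3 members under DESeq2 and the same scalings, filters and limma fits and without litter 1 or 3, and 4 without litter 2. Single genes were followed for the members, the list genes named by rule and the genes most like the called members. Among them no called value changed its sign under any alternative run. Gata3, Cxcl1 and the other genes named after their values were seen were not followed there. Depth limits Epgn, which could not be tested, and Btc, Erbb3 and Tgfa, with at most 21, 29 and 41 counts in a library.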

Other observations

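The genes Epgn, Ereg, Areg and Btc follow one another in this order in the order of protein-coding genes in RefSeq (GRCm38.p6), and the genes on either side were read in the same libraries, chosen after the family values were seen. Cxcl1 and Cxcl2, which code for neutrophil-attracting chemokines, differed between litters in the order of Areg and Ereg. Cxcl1 had 52.6, 11.9 and 31.9 CPM in litters 1, 2 and 3 (edgeR litter adjusted p = 5.24e-15), and Cxcl2 had 12.7, 1.499 and 5.04 CPM (edgeR litter adjusted p = 1.32e-11). Mthfd2l, which lies between Cxcl2 and Epgn, had 25.4, 22.8 and 22.6 CPM and did not pass (edgeR litter adjusted p = 0.386). Beyond Btc, Parm1 (8.89, 7.88 and 8.57 CPM) and Rchy1 (51.9, 54.4 and 50.9 CPM) did not pass either (edgeR litter adjusted p = 0.664 and 0.616). At high adhesion Cxcl1 rose by 0.35 on the log2 scale (standard error 0.07, edgeR adjusted p = 0.00117), and the difference for Cxcl2 was 0.23 (standard error 0.14, edgeR adjusted p = 0.343).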
